A study of Mus musculus with 6 samples.

Results

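The regions described here were the ATAC-seq peaks of protein-coding genes with 5 or more peaks in muscle stem cells (MuSCs). ATAC-seq marks open chromatin, because the Tn5 transposase inserts sequencing adapters where DNA is accessible. The genes were chosen by the number of peaks assigned to them in the table of normalized values, where each peak belonged to the gene with the nearest transcription start site (TSS) within 10000 bp (peak centres lay up to 10568 bp away). This gave 235 genes with 1255 peaks, which was 1.66% of all 75412 peaks and 5.37% of the 23357 peaks of protein-coding genes. Most of the 235 genes, 172, had exactly 5 peaks, whereas 49 had 6, 11 had 7 and 3 had 8. A region opened in 1 genotype adds a peak to its gene, so the number of peaks is itself read from these libraries, and the way calls vary with it is given as a description without a test.

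MuSCs were compared straight after isolation from adult mice of the C57BL/6 background, with 3 libraries from control and 3 from Taf4a sKO animals. TAF4A is a subunit of TFIID, the complex that assembles RNA polymerase II at promoters. In the Taf4a sKO mice, Cre recombinase fused to a modified oestrogen receptor and driven from Pax7 removes floxed Taf4a exons after tamoxifen, so deletion is limited to cells that express Pax7. The study describes its controls as mice with floxed Taf4a alleles, with or without the Cre allele. Which of these the 3 control libraries carried is not given in the sources used here, nor is it stated whether a library pooled several mice, so p-values measure the spread between these libraries. Cells negative for SCA1, CD45 and CD31 were sorted for integrin alpha 7 or, from mice with a Pax7 reporter, for green fluorescence. CD45 marks blood cells, CD31 endothelial cells and SCA1 fibro-adipogenic cells, so the gate is set against these. The study states a purity clearly below full, so a sizeable share of other cells may have remained.

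Genes with many accessible regions near the start site are often those that carry several enhancers beside the promoter. Such clustered elements are typical of transcription factors, signalling components and early response genes, whose expression has to follow many inputs. An accessible region is not proof of regulation, and the nearest gene is not always the gene that an element serves. Quiescent MuSCs are kept by Pax7, by Notch signalling and by a matrix niche, and respond to injury or isolation with a fast rise of AP-1 factors (Fos and Jun dimers).

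The values are read counts multiplied by the authors with 1 depth factor per library and rounded. Whole numbers that never occur show each factor, which was 1.39, 1.0 and 1.23 for control replicates 1 to 3 and 1.39, 1.37 and 1.29 for Taf4a sKO replicates 1 to 3. The reads in peaks were thus about 27200000, 35200000 and 34700000 in control and 31900000, 30400000 and 32500000 in Taf4a sKO libraries. Of these, about 551000, 703000 and 706000 in control and 677000, 639000 and 685000 in Taf4a sKO libraries lay in the 1255 peaks. All 1255 peaks had a mean above 10, the lowest at 13.5, and none was lost to the filter on low values. The 1255 peaks took 2.03, 2.00 and 2.03% of the signal of the control and 2.12, 2.10 and 2.11% of the signal of the Taf4a sKO libraries. Their median value was 288, 274 and 318 in control and 376, 358 and 369 in Taf4a sKO, with no overlap between genotypes. Over all peaks of the table the mean value, a different measure, was 500.2, 467.1 and 567.6 in control. It was 587.6, 552.5 and 556.3 in Taf4a sKO libraries, so part of the difference is shared by the whole table as deposited.

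The 235 genes were spread over 20 chromosomes, with the most on chromosomes 11 (22 genes) and 7 (21 genes). No pair of these genes had start sites within 20000 bp of each other. The peaks of a gene spanned a median of 14971 bp, a peak was 542 bp wide in the median, and the strongest peak of a gene held a median of 45.5% of its summed value. By the GENCODE annotation of mm10, 426 of the 1255 peak centres (33.9%) lay within 1000 bp of the start of some transcript, 397 (31.6%) in introns, 357 (28.4%) between genes, 52 (4.14%) in other exon sequence and 23 (1.83%) in untranslated regions. Among genes with 1 to 4 peaks, 63.5% of 22098 peaks were of the promoter kind. The highest summed value, a mean of 14246 over the 6 libraries, belonged to Bcl3, a cofactor of NF-kappa B, and the lowest, 323.8, to Rxfp4, a receptor for a relaxin-family peptide.

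Sequences are shown for peaks of genes whose peaks changed together or in both directions. For each, the 300 bases around the peak centre were read from the GRCm38 genome (mm10), and capitals mark TGANTCA, the AP-1 site, CAGCTG, an E-box bound by MYOD and other bHLH factors, and CCAAT on either strand, the NF-Y site. The first 6 are the peaks with the smallest p of Foxs1 and Angptl4 (peaks higher in Taf4a sKO), of Galr3 and Iyd (peaks lower) and of Rhoh and Epha2 (both directions). The Galnt15 peak and the second Iyd peak were added after values were seen, as the other peaks with the highest and lowest log2 fold change that hold an AP-1 site and an E-box, respectively.
Foxs1, chr2:152927456-152927755, plus strand: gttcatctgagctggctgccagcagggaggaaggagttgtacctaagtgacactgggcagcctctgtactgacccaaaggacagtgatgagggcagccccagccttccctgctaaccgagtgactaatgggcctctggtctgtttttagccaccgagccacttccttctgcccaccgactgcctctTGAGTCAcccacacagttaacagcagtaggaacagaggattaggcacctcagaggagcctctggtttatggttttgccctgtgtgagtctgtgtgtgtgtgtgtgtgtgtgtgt
Angptl4, chr17:33781887-33782186, plus strand: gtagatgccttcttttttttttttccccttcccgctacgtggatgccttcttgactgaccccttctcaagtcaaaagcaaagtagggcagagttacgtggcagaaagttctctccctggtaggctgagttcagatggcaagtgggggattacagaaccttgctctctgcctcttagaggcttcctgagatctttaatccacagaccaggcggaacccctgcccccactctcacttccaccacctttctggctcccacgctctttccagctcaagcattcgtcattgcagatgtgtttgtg
Galr3, chr15:79038931-79039230, plus strand: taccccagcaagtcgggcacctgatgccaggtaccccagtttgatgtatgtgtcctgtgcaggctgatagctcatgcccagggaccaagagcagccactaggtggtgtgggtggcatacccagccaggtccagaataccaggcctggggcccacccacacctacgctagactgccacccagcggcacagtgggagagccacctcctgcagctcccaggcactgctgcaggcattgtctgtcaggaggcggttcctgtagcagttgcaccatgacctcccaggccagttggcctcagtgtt
Iyd, chr10:3537165-3537464, plus strand: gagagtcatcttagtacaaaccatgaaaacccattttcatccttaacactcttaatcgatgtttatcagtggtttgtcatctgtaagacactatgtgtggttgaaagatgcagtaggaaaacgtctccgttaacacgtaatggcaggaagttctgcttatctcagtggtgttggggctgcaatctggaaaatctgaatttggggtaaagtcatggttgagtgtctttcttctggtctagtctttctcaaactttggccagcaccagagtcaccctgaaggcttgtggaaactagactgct
Rhoh, chr5:65863390-65863689, plus strand: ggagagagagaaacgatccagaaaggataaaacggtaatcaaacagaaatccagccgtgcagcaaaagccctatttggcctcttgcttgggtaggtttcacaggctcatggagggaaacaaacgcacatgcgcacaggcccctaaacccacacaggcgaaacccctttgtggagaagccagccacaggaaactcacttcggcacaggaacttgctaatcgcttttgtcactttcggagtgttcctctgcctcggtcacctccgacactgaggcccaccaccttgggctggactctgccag
Epha2, chr4:141303641-141303940, plus strand: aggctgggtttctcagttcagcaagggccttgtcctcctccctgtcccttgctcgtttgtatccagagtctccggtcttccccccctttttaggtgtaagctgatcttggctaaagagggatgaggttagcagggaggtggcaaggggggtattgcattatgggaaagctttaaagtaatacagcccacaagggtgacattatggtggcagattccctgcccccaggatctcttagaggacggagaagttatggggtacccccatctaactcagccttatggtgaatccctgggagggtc
Galnt15, chr14:32023234-32023533, plus strand: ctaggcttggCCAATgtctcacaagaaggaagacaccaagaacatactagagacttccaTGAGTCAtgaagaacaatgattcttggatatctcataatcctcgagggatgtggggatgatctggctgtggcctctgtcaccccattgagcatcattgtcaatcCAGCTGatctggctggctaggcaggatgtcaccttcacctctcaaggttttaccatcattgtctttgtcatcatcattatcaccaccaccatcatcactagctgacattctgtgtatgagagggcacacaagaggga
Iyd, chr10:3530330-3530629, plus strand: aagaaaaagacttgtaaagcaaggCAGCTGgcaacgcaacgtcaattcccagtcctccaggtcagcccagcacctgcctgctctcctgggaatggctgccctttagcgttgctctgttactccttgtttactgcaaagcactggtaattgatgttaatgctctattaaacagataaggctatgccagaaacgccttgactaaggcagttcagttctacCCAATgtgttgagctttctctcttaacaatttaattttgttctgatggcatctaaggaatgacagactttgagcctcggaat
Of the 6 peaks taken by their p, the Foxs1 peak held an AP-1 site, and the other 5 windows held none of the 3 letter strings. The Galnt15 peak lay 5604 bp upstream of the start of this gene, which encodes a glycosyltransferase, and had values of 14, 18 and 21 in control and 67, 79 and 65 in Taf4a sKO libraries (log2 fold change 1.95, adjusted p = 5.8e-06, limma). These are low values, near the filter in control.

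In Taf4a sKO MuSCs, accessibility at these genes was higher at 417 of the 1255 peaks (33.2%) and lower at 91 (7.25%), by limma at an adjusted p under 0.05. Over all 75384 peaks tested, 28.0% were higher and 13.9% lower. Thus, 82.1% of the 508 called peaks of the 235 genes were higher. The median log2 fold change was 0.19 at the peaks of these genes and 0.11 at all tested peaks. Changes were mostly below a doubling, since 80 peaks (6.37%) were called higher with a log2 fold change above 1, against 7.24% of all peaks, and 24 (1.91%) were called lower with a log2 fold change below -1, against 5.34%.

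The split between higher and lower depended on how the libraries were scaled. With median-of-ratios factors, which moved the median of all peaks by -0.112, 382 peaks were higher and 195 lower, so 66.2% of calls were higher. Quantile normalization moved the median by -0.129 and gave 361 higher and 233 lower peaks (60.8%). Over all tested peaks, 66.8% of calls were higher as deposited, 53.0% with median-of-ratios factors and 49.7% after quantile normalization. Several peaks given below as not called fell under the other scalings. For example, those at the promoters of Ier5, Fosb, Col3a1 and Taf4, in the exon of Galr3 and 495 bp downstream of the start of Angptl4 were called lower with both other scalings, with log2 fold changes between -0.14 and -0.41. Relative to the median of all peaks, the median of the 1255 peaks was 0.08 as deposited, 0.08 with median-of-ratios factors and 0.05 after quantile normalization.

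The share of higher peaks was larger in classes of genes with more peaks. It was 9.41% at genes with 1 peak, 17.5% with 2, 24.5% with 3 and 28.2% with 4, and at genes just inside the limit, with exactly 5 peaks, 33.7%. Genes with 6 to 8 peaks had 32.2%. Lower peaks took 7.75, 10.8, 11.3 and 11.5% at genes with 1, 2, 3 and 4 peaks, 7.56% at genes with 5 and 6.58% at genes with 6 to 8. Peaks of genes with 1 peak were mostly at promoters (87.4%) and had a median value of 1137, against 33.9% and 342.5 for the 1255 peaks, so the classes differ in the kind of peak as well as in number.

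**Figure D1:**
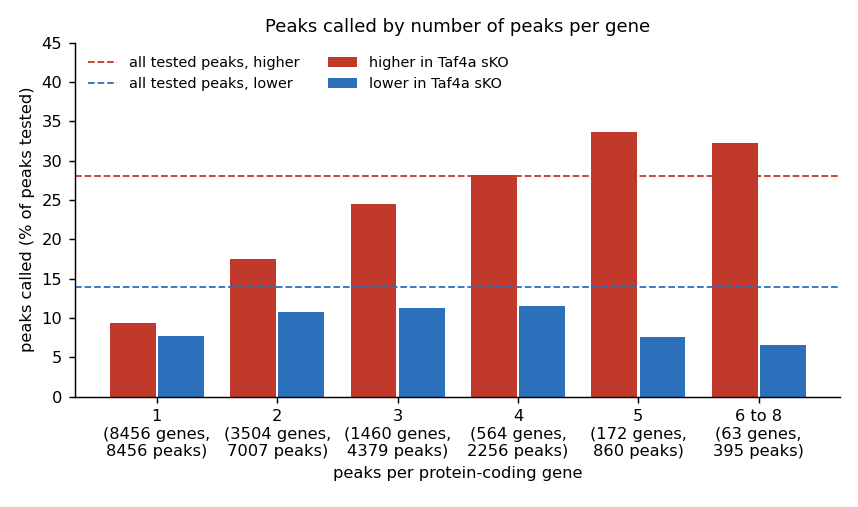
Percent of tested peaks called higher (red bars) or lower (blue bars) in Taf4a sKO MuSCs, for protein-coding genes with 1 to 8 peaks; dashed lines mark the 28.0% and 13.9% over all tested peaks. The red bars go from 9.41% at 1 peak to 33.7% at 5 peaks, and the blue bars stay between 6.58% and 11.5%.

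Whether the peaks of a gene changed together was read in 3 ways. First, of the 235 genes, 138 had higher calls without lower ones, 25 had lower calls without higher ones, 43 (18.3%) had both and 29 had none. Among the 152 genes with 2 or more called peaks, 109 had all calls in 1 direction. Over all protein-coding genes this was so at 943 of 1207, and calls in both directions were present at 1.26, 6.85 and 13.7% of genes with 2, 3 and 4 peaks. Every peak was called higher at 6 genes and at least 80% of peaks at 20, whereas no gene had every peak called lower and 2 had at least 80% lower. With median-of-ratios factors, 2 genes had every peak lower and 5 at least 80%, and after quantile normalization 1 and 4. Without control replicate 3 the counts of higher genes were 14 and 43. With median-of-ratios factors, 84 genes had calls in both directions, 87 had higher calls alone and 44 lower calls alone. As deposited, every peak was called higher at 165 of 3504 genes with 2 peaks, 63 of 1460 with 3 and 14 of 564 with 4. Every peak was called lower at 89, 12 and 6 of these genes.

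Second, the values of all peaks of a gene were summed. The sum was higher in Taf4a sKO at 80 of the 235 genes (34.0%) and lower at 8 (3.40%), against 14.4% and 8.23% of all 14221 protein-coding genes. For most sums limma took the spread from the trend over genes and gave no weight to that of the single gene, so their p-values can be extremely small. The SE and p of single sums below come from a second fit, added after the data were seen, in which the own spread of each gene enters; it called 67 higher (28.5%) and 6 lower (2.55%), against 11.9% and 8.21% of all protein-coding genes. The median log2 fold change of the sums was 0.19, and 0.06 over all protein-coding genes. One library weighed on the count of the first fit, which was used for all runs with other scalings or libraries. Without control replicate 3, 153 genes (65.1%) had a higher sum. With each other library left out in turn, 20.0 to 31.5% did. Quantile normalization gave 37.0% higher and 23.4% lower sums.

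In a further test, the differences between the peaks of a gene were examined. The genotype difference was unequal among the peaks at 189 of the 235 genes (80.4%, F test of limma diffSplice, adjusted p under 0.05), and at 46.5% of the 5762 protein-coding genes with 2 or more tested peaks. The share was 36.2% at genes with 2 peaks, 57.3% with 3, 68.8% with 4, 79.1% with 5 and 84.1% with 6 to 8. A gene with more peaks offers more differences to the test, so these shares are not compared further.

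Of 523 pairs of called peaks within 1 gene, 437 had the same direction (83.6%), as did 70.5% of pairs formed over all called peaks of the 235 genes. The share within a gene was 85.2, 81.7 and 81.3% at genes with 2, 3 and 4 peaks, where pairs over all called peaks of the class had the same direction in 52.7, 56.8 and 58.8%. Between-gene variance was 26.0% of the variance of the log2 fold changes, with an SD of 0.27 between genes and 0.46 among the peaks of a gene. At genes with 2, 3 and 4 peaks the between-gene part was 25.3, 27.6 and 29.5%. Adjacent peaks were only loosely alike: over 1020 neighbouring pairs, which share the libraries, Pearson's r of the log2 fold changes was 0.29 and 65.5% had the same sign. For gaps below 1000 bp r was 0.31 (299 pairs), for gaps of 1000 to 3000 bp 0.34 (363 pairs) and for longer gaps 0.24 (358 pairs). At genes with 2 to 4 peaks r was 0.30 over 8114 pairs, and 0.49, 0.38 and 0.21 for the 3 classes of gap.

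The calls at start sites were set beside those at the other peaks of the same gene, as deposited. Of the 206 genes with a peak within 1000 bp of their own start and another one beyond, 132 had calls at the other peaks and none at the TSS peak, 45 had calls at both, 5 at the TSS peak alone and 24 at neither. Each gene gives 1 TSS peak but several other peaks to this count, so a call among the other peaks has more chances to occur. The TSS peak was higher at 42 genes and lower at 8. The lower count depended on the scaling, with 39 genes higher and 41 lower with median-of-ratios factors and 39 higher and 52 lower after quantile normalization. Without control replicate 3, 84 were higher and 6 lower, and without Taf4a sKO replicate 3, 34 were higher and 3 lower. Its median log2 fold change was 0.12, and the median over genes of the other peaks' medians was 0.25. Across the 206 genes, which share the libraries, r between them was 0.32, and the signs were equal at 147 genes. The TSS peak had the highest value of the gene in 98 of the 206 genes, and TSS peaks had a median value of 649, against 242.3 for peaks beyond 5000 bp. Higher calls took 20.1% of the 234 peaks within 1000 bp of the own start, 35.1% of 430 peaks at 1000 to 5000 bp and 37.1% of 591 beyond 5000 bp, and lower calls took 5.56, 6.74 and 8.29%. Genes with 1 to 4 peaks had the same order, with higher calls at 9.83, 24.3 and 25.6%, and with lower calls at 5.67% at the start and 15.9% beyond 5000 bp. By annotation, introns had the largest share of higher peaks, with 178 of 397 (44.8%), followed by 34.6% in exons, 31.1% between genes, 30.4% in untranslated regions and 24.2% at promoters. Introns also led at genes with 1 to 4 peaks (30.2% higher).

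**Figure D2:**
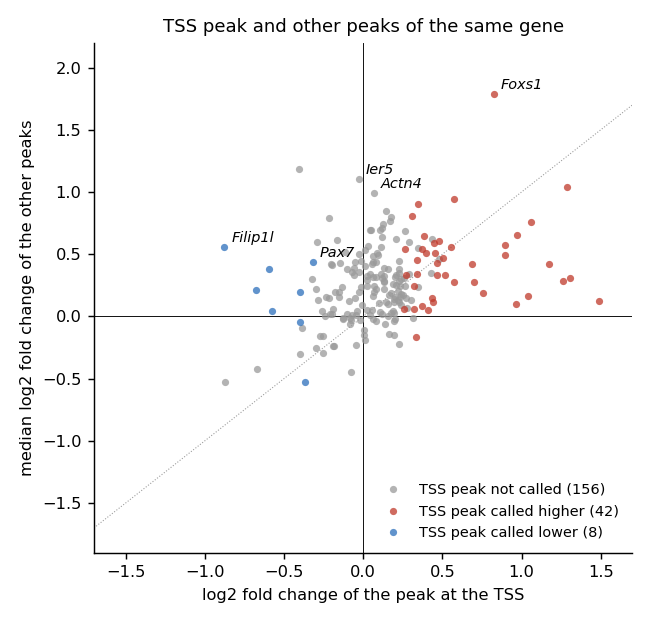
Each point is 1 of the 206 genes with a peak at the start site and others beyond; the horizontal axis gives the log2 fold change of the TSS peak and the vertical axis the median over the other peaks, and the dotted line marks equality. Most points lie close to 0 on the horizontal axis (medians 0.12 and 0.25), and Filip1l and Pax7 have a lower TSS peak beside higher other peaks.

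Foxs1, a forkhead transcription factor, had every peak called in 1 direction. All 6 of its peaks were higher in Taf4a sKO MuSCs, with log2 fold changes from 0.67 to 2.92 and a median of 1.65. Its 6 peaks summed to 665, 569 and 463 in the control libraries and to 1513, 1575 and 1877 in those of Taf4a sKO (log2 fold change 1.56 ± 0.13 SE, adjusted p = 6.5e-08, limma). The peak with the largest log2 rise of all 1255, at chr2:152927483-152927730, 5601 bp downstream of the start and between genes, had values of 36, 42 and 39 in control and 251, 288 and 378 in Taf4a sKO libraries (log2 fold change 2.92, adjusted p = 2.0e-10). It is the peak shown above with an AP-1 site. The peak beside it, at chr2:152925497-152925822, rose from 40, 30 and 22 to 132, 144 and 190, and the peak at chr2:152931403-152932121 from 199, 185 and 122 to 555, 540 and 623. The promoter peak, 353 bp upstream of the start, moved less, with 208, 153 and 155 in control and 286, 295 and 326 in Taf4a sKO libraries (log2 fold change 0.82, adjusted p = 1.8e-04). No library of 1 genotype reached the range of the other at any of the 6 peaks, and all were called with either other scaling.

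Angptl4, Actn4, Ier5, Cd44 and Tmem100 also had at least 80% of peaks called higher. These were 4 of 5 peaks at the first 4 genes and 5 of 6 at Tmem100. Tmem100 fell to 4 of 6 with median-of-ratios factors. It had 4 as well without control replicate 1, control replicate 2, Taf4a sKO replicate 1 or Taf4a sKO replicate 3. Angptl4 encodes a secreted inhibitor of lipoprotein lipase. Its peak 208 bp upstream of the start rose from 199, 169 and 239 to 493, 496 and 479 (log2 fold change 1.28, adjusted p = 3.6e-07), while the next peak, 495 bp downstream of the start, had 595, 444 and 532 in control and 486, 451 and 436 in Taf4a sKO libraries and was not called. At Ier5, an immediate early gene, the promoter peak was not called, with 2095, 1905 and 2392 in control and 2093, 2106 and 2040 in Taf4a sKO libraries. The 4 other Ier5 peaks rose, the most at chr1:155108410-155108871, 9005 bp upstream, from 254, 265 and 371 to 755, 789 and 822 (log2 fold change 1.43, adjusted p = 7.0e-08). Actn4, which encodes an actin-crosslinking alpha-actinin, had the same layout: a promoter peak with 1787, 1543 and 1854 in control and 1850, 1757 and 1800 in Taf4a sKO libraries, and 3 intronic peaks with log2 fold changes of 1.01, 0.97 and 1.05 that were all called higher.

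Cd44, the receptor for hyaluronan, differed from Ier5 and Actn4 in that its promoter peak rose as well. Its values were 1403, 1473 and 1945 in control and 2441, 2321 and 2348 in Taf4a sKO libraries (log2 fold change 0.57, adjusted p = 3.4e-04). The intronic peak at chr2:102894902-102895695 had 584, 684 and 1070 in control and 1389, 1585 and 1457 in Taf4a sKO libraries. Control replicate 3 was the highest control at all 5 Cd44 peaks, and the summed value was 2781 ± 635 in control and 4556 ± 97.6 in Taf4a sKO MuSCs (SD, n = 3, log2 fold change 0.73, adjusted p = 3.1e-04). Tmem100, a small membrane protein gene, had summed values of 805, 715 and 903 in control and 1426, 1626 and 1497 in Taf4a sKO libraries (log2 fold change 0.91 ± 0.11 SE, adjusted p = 5.3e-06, limma).

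The 6 genes at which every peak was called higher were Foxs1, Timp3, Gna13, Klhl30, Krt80 and Mdfic; apart from Foxs1 they are named here after their values were seen. Of these, Foxs1, Klhl30, Krt80 and Timp3 kept every call with median-of-ratios factors and after quantile normalization, and with each library left out in turn. At Klhl30 the changes were the most even of the 6. Its 5 log2 fold changes lay between 0.59 and 0.97, and the within-gene test did not find them unequal (adjusted p = 0.12, limma). Its summed value was 2617 ± 473 in control and 4630 ± 269 in Taf4a sKO MuSCs (SD, n = 3). Timp3, an inhibitor of matrix metalloproteases that lies within an intron of Syn3, had a span from 0.47 to 1.60. Its most changed peak, 4257 bp downstream of the start, rose from 68, 97 and 106 to 255, 277 and 280. Gna13, a G protein subunit, had 4 peaks between 0.31 and 0.48 and an intronic one at 2.10, with 43, 55 and 62 in control and 215, 230 and 243 in Taf4a sKO libraries. Gna13 kept 2 of its 5 calls without control replicate 1 and 3 to 5 without each other library, and 4 with either other scaling.

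Lower accessibility over most of a gene was seen at 2 genes, Galr3 and Iyd. Galr3 encodes a galanin receptor, and 3 of its 6 peaks lie within the neighbouring gene Gcat. Of the 6 peaks, 5 were called lower as deposited and all 6 with either other scaling. Without control replicate 3 or without Taf4a sKO replicate 2, 4 of the 6 peaks were called lower. The strongest, at chr15:79044697-79045483, had 1448, 1477 and 1744 in control and 397, 273 and 452 in Taf4a sKO libraries (log2 fold change -2.08, adjusted p = 4.3e-08). The farthest, 9830 bp downstream, had 446, 553 and 830 in control and 128, 123 and 119 in Taf4a sKO libraries (log2 fold change -2.25, adjusted p = 3.4e-08). The remaining peak, in the exon of Galr3, had 300, 250 and 296 in control and 240, 233 and 244 in Taf4a sKO libraries and was not called. The summed value was 3413 ± 509 in control and 1156 ± 127 in Taf4a sKO MuSCs (SD, n = 3, log2 fold change -1.56, adjusted p = 2.8e-08).

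At Iyd, which encodes the iodotyrosine deiodinase of thyroid tissue, all 5 peaks lay upstream of the start and between genes, and 4 were called lower. The peak at chr10:3530305-3530655 had 72, 70 and 86 in control and 8, 18 and 4 in Taf4a sKO libraries (log2 fold change -3.01 ± 0.39 SE, adjusted p = 5.8e-06), which was the largest fall among the 1255 peaks. These values are low, and with a pseudocount of 1 the fold rests on few reads. The strongest Iyd peak, shown first above, had 182, 152 and 168 in control and 51, 59 and 65 in Taf4a sKO libraries. No Iyd peak lay within 1000 bp of the start. Over the 5 peaks the sum was 492 ± 32.2 in control and 186 ± 8.7 in Taf4a sKO MuSCs (SD, n = 3).

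**Figure D3:**
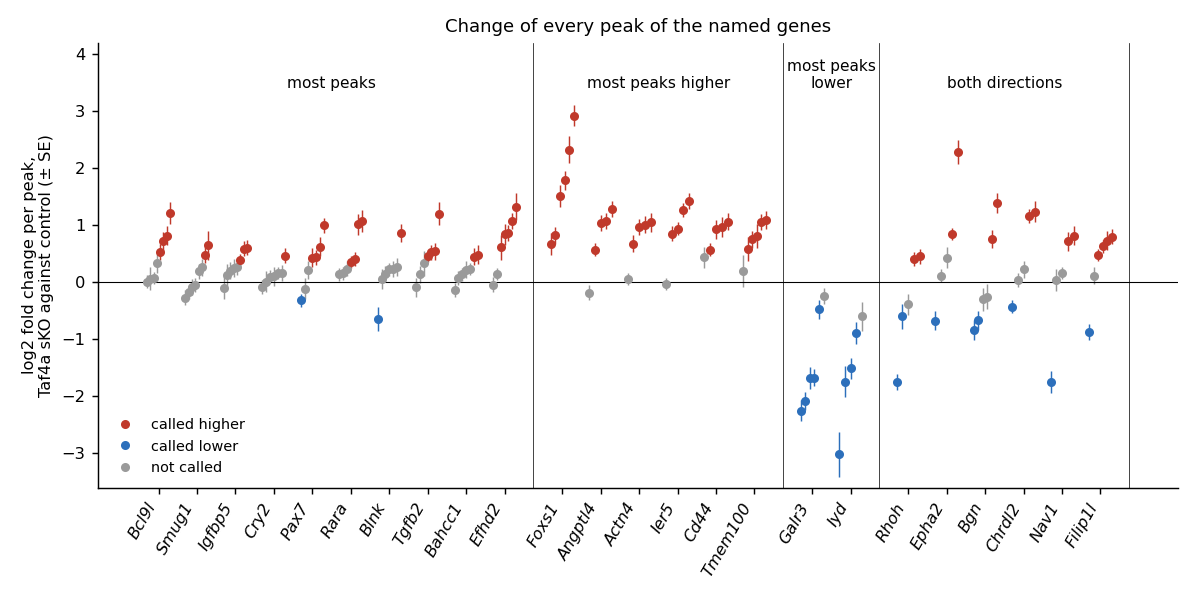
Each point is the log2 fold change of 1 peak with its SE, for 10 genes with 7 or 8 peaks (the 3 with 8 and the 7 with the largest sums among those with 7), genes with at least 80% of peaks called in 1 direction (up to 6 in each direction) and the 6 genes with calls in both directions and the smallest p of the within-gene test. Red, blue and grey mark peaks called higher, called lower and not called; points reach from -3.01 at Iyd to 2.92 at Foxs1.

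The 6 genes with the smallest p of the within-gene test among those with calls in both directions were Rhoh, Epha2, Bgn, Chrdl2, Nav1 and Filip1l, selected on the contrast itself, so their values describe the pattern. At Rhoh, which encodes a small GTPase of blood cells, peaks on both sides of the start moved apart. Upstream, at chr5:65858930-65859913, values were 916, 773 and 1164 in control and 1432, 1211 and 1219 in Taf4a sKO libraries. Downstream, 2328 bp from the start, they were 389, 491 and 477 in control and 126, 136 and 138 in Taf4a sKO libraries (log2 fold change -1.75). The summed value, 2155 ± 270 against 2296 ± 166 (SD, n = 3), did not pass the test (adjusted p = 0.62, limma). With the mean of log2 values in place of the sum, Rhoh was lower (-0.37), and without control replicate 2 it had no higher and 1 lower peak.

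Epha2, an ephrin receptor tyrosine kinase, had the largest contrast between close peaks. Its intronic peak at chr4:141303498-141304084 rose from 65, 70 and 86 to 301, 289 and 537 (log2 fold change 2.28), while the peak just before it had 161, 189 and 170 in control and 107, 97 and 121 in Taf4a sKO libraries (log2 fold change -0.68). The promoter peak was not called, with 942, 923 and 1130 in control and 1035, 1117 and 1083 in Taf4a sKO libraries. Bgn, which encodes the matrix proteoglycan biglycan, had 2 peaks higher and 2 lower. Its peak 6846 bp upstream rose from 158, 123 and 214 to 444, 369 and 457, and that 3788 bp upstream fell from 522, 405 and 442 to 326, 184 and 270.

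Chrdl2, a BMP antagonist and a marker of quiescent MuSCs, had a promoter peak that was not called, with 589, 566 and 702 in control and 644, 652 and 613 in Taf4a sKO libraries. Its intronic peak at chr7:100011970-100012486 rose from 356, 326 and 377 to 749, 832 and 799, whereas the peak at chr7:100009578-100010216 fell from 775, 765 and 812 to 594, 581 and 577. At Nav1, a microtubule-binding protein gene, the peak 6780 bp downstream of the start fell from 210, 186 and 166 to 71, 47 and 50. Its upstream peak rose from 246, 273 and 415 to 534, 519 and 454. Filip1l, which lies inside Cmss1, was the case with a lower TSS peak: values there were 570, 554 and 461 in control and 329, 267 and 267 in Taf4a sKO libraries (log2 fold change -0.88). The next peak, 763 bp downstream of the start, rose from 226, 219 and 227 to 382, 412 and 378.

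**Figure D4:**
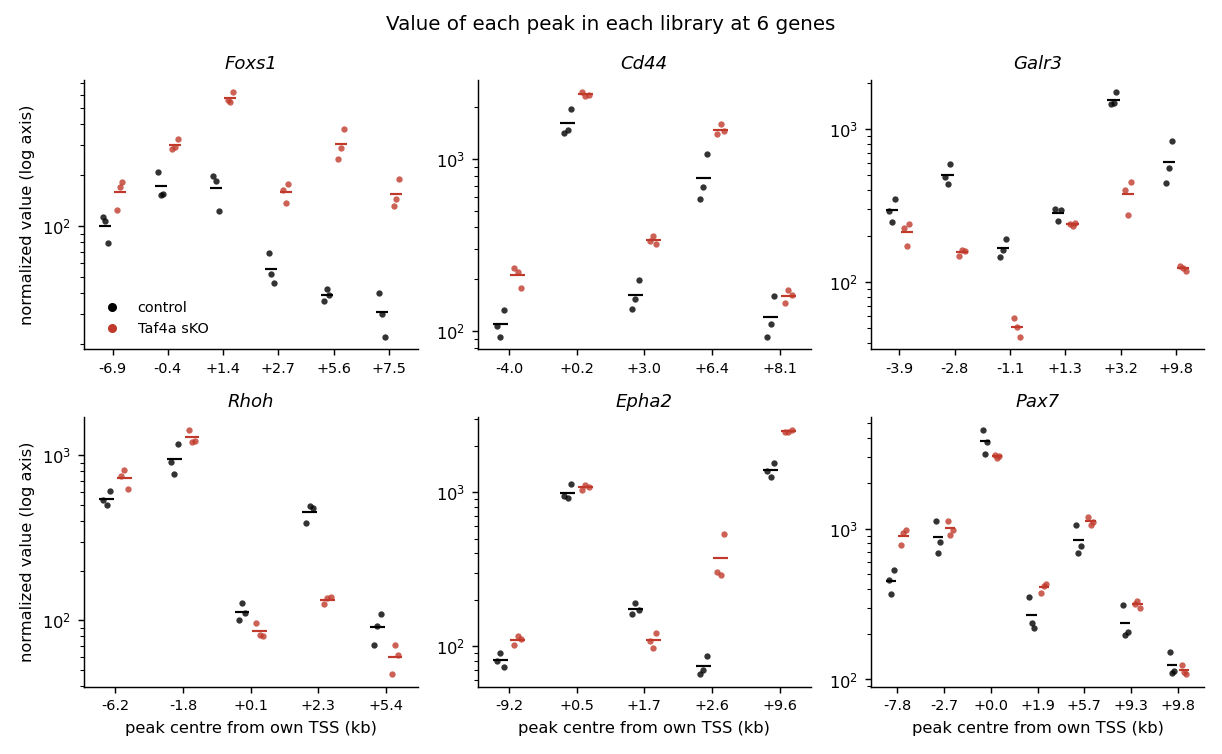
Normalized value (log axis) of every peak of Foxs1, Cd44, Galr3, Rhoh, Epha2 and Pax7 in each library; peaks are ordered by the distance of their centre from the start site in kb, control in black and Taf4a sKO in red, with a line at the mean of the 3 libraries. At Foxs1 the red points lie above the black ones at all 6 peaks, at Galr3 below them at all 6, and at Rhoh, Epha2 and Pax7 the order changes from peak to peak.

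The 3 genes with 8 peaks were Bcl9l, Smug1 and Igfbp5, and of the 11 genes with 7 peaks the 7 with the largest summed value are described with them. Bcl9l, a coactivator of Wnt signalling, had 4 of 8 peaks higher, the most at chr9:44487090-44487374 with 94, 90 and 140 in control and 200, 310 and 244 in Taf4a sKO libraries, and its strongest peak, with 2652, 2320 and 2958 against 2860, 2836 and 2642, was not called. Igfbp5, which binds insulin-like growth factors, had 3 intronic peaks higher and none lower. Smug1, a DNA repair glycosylase, had 2 higher peaks (1 higher and 1 lower with median-of-ratios factors, 1 higher and 4 lower after quantile normalization) and a sum that was not called (log2 fold change 0.003, adjusted p = 0.99), which turned to -0.20 after quantile normalization. Efhd2, a calcium-binding protein gene, had 5 of 7 peaks higher and none lower. Of Rara, the retinoic acid receptor alpha, and Tgfb2, the TGF-beta 2 ligand, 4 of 7 peaks were higher each. Bahcc1 had 2 higher peaks, but none without control replicate 2 or Taf4a sKO replicate 3, and 1 higher and 1 lower with either other scaling. Cry2, a clock repressor, had 1 higher peak, and Blnk, an adaptor of B-cell receptors, had 1 higher and 1 lower, with 4 higher without control replicate 3 and no lower one without control replicate 2.

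Pax7, the factor that defines MuSCs and that drives the Cre allele, had 7 peaks, all in its first part or upstream of it. The promoter peak, at chr4:139832550-139834483, was the strongest, with 4533, 3128 and 3729 in control and 3084, 2923 and 3026 in Taf4a sKO libraries (log2 fold change -0.32, adjusted p = 0.03). The groups did not overlap there but came close, and the call held in 1 of 6 fits with a library left out. The upstream peak at chr4:139841018-139841674 rose from 456, 371 and 530 to 783, 939 and 977 (log2 fold change 1.00, adjusted p = 4.8e-06) and kept its call under every scaling and with each library left out. Of 3 intronic peaks called higher, with log2 fold changes of 0.43, 0.44 and 0.63, none was called after quantile normalization and 1 with median-of-ratios factors. The summed value, 6599 ± 1302 in control and 6869 ± 167 in Taf4a sKO MuSCs (SD, n = 3), did not pass the test (adjusted p = 0.74).

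Taf4, the targeted gene, had 2 peaks and was not among the 235 genes. Its promoter peak had 2305, 1998 and 2375 in control and 2095, 2124 and 2104 in Taf4a sKO libraries and was not called as deposited, but was called lower with median-of-ratios factors (log2 fold change -0.19) and after quantile normalization (-0.20). The other peak, 3331 bp upstream of the start, rose from 488, 437 and 653 to 831, 695 and 759 (log2 fold change 0.55, adjusted p = 0.003, limma) and kept its call under both other scalings and with each library left out. Neither peak lies in the floxed exons, so these values do not check the genotype.

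Gene lists of MuSC biology held 1 to 8 genes with 5 or more peaks each, or none. Over all tested peaks, 28.0% were higher and 13.9% lower. Of these lists, only that of MuSC identity and quiescence and that of extracellular matrix and niche had more than 28.0% of their peaks higher. The counts of lower peaks given for these lists are as deposited, and most were larger with the other scalings. The counts of higher peaks also moved with the libraries used, and without control replicate 3 they were larger at most lists. Of the list of MuSC identity and quiescence, 35 of 36 genes had a peak (Meox2 had none), and 8 had 5 or more: Pax7, Spry1, Sdc3, Cdh15, Foxo1, Lbx1, Chrdl2 and Cd34. At these 8, 14 of 44 peaks were higher and 4 lower, and over the list 42 of 118 (35.6%) were higher and 9 (7.63%) lower, with a median log2 fold change of 0.19. Of the 44 peaks, 14 were higher and 1 lower without control replicate 1, and 9 were higher and 7 lower after quantile normalization. Sdc3, the heparan sulphate proteoglycan syndecan 3, had an intronic peak that rose from 192, 164 and 187 to 466, 418 and 507 and an upstream one that fell from 47, 32 and 49 to 21, 19 and 26. The call of the upstream Sdc3 peak held in 4 of 6 fits with a library left out. Cdh15, which encodes M-cadherin, had an intronic peak that rose from 253, 226 and 244 to 776, 745 and 737. Spry1, an inhibitor of FGF signalling that was also the 1 gene of this kind in the list of FGF receptors and MAP kinase brakes, had 1 of 6 peaks higher; of that whole list 16 of 59 peaks (27.1%) were higher and 5 (8.47%) lower.

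Of the Notch pathway, Heyl, Rbpj, Hes1 and Notch3 had 5 or more peaks, and 6 of their 22 peaks were higher and 2 lower. Without control replicate 3, 10 were higher, and without control replicate 2, 3 were. Lower calls were 5 with median-of-ratios factors and 6 after quantile normalization. The whole list had 16 of 70 higher (22.9%) and 8 lower (11.4%), against 28.0% and 13.9% of all tested peaks. Heyl, a Notch target with a summed value of 11546 ± 1417 in control and 11556 ± 1305 in Taf4a sKO MuSCs (SD, n = 3), had no called peak as deposited, but 1 lower with median-of-ratios factors and 2 after quantile normalization. After quantile normalization the log2 fold change of its sum was -0.13 and passed the test of the first fit of the sums. The second fit, with the own spread of each gene, was run on the deposited values alone. Rbpj, the DNA-binding partner of Notch, had calls in both directions within 4 upstream peaks. One of them rose from 117, 142 and 176 to 311, 295 and 330, and another, at chr5:53463071-53463470, fell from 190, 231 and 202 to 160, 137 and 143, a call that held in 4 of 6 fits with a library left out. Without control replicate 2, Rbpj had 1 higher and no lower peak. Notch3, a receptor, had 3 of 5 peaks higher.

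The AP-1 and immediate early list held Fosb, Klf6, Klf4, Myc and Ier5, with 10 of 28 peaks higher and 2 lower (17 higher without control replicate 3, and 6 lower with either other scaling). Over the whole list 22 of 80 peaks were higher (27.5%) and 8 of 80 lower, against 28.0% and 13.9% of all tested peaks. Fosb, a subunit of AP-1, had 1 lower peak (log2 fold change -0.35) and no higher one as deposited, 3 lower with either other scaling, and 2 higher and none lower without control replicate 3. Its promoter peak had 2930, 2543 and 2828 in control and 2515, 2335 and 2331 in Taf4a sKO libraries and was not called. Klf6 had 4 of 6 peaks higher, all downstream of a promoter peak that was not called. Klf4 had 1 clear fall, at chr4:55525864-55526454, from 243, 233 and 239 to 97, 95 and 90 (log2 fold change -1.33, adjusted p = 5.9e-07). Myc had 1 of 5 peaks higher, a call that held in 1 of 6 fits with a library left out, and 3 were higher without control replicate 3.

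The list of extracellular matrix and niche genes had the largest share of higher peaks, with 55 of 106 (51.9%), 5 lower (4.72%) and a median log2 fold change of 0.43. Its members with 5 or more peaks were Col3a1, Timp2, Sparc, Col6a1 and Timp3, at which 15 of 27 peaks were higher and 1 lower. Sparc, a collagen-binding matrix protein gene, had a peak 801 bp upstream of the start that rose from 245, 242 and 294 to 580, 574 and 601. Col3a1, the collagen III chain, had 4 higher peaks within the gene and a promoter peak with 174, 177 and 181 in control and 143, 134 and 159 in Taf4a sKO libraries that was not called. Col6a1, a collagen VI chain, had no called peak as deposited, 1 lower with each other scaling and 3 higher without control replicate 3. Its sum, with a log2 fold change of 0.07, turned to -0.10 after quantile normalization and passed the test of the first fit of the sums there.

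In TGF-beta and BMP signalling 3 genes had 5 or more peaks, with 8 of 18 peaks higher and none lower (3 lower with median-of-ratios factors, at Id1, and 4 after quantile normalization). The whole list had 24 of 86 higher (27.9%) and 6 lower (6.98%), against 28.0% and 13.9% of all tested peaks. Within that group Tgfb2 had its promoter peak at 1927, 1930 and 2565 in control and 2907, 2943 and 2921 in Taf4a sKO libraries, while at Id1, a BMP target, 1 of 6 peaks rose. Of the circadian clock, Cry2, Nr1d1 and Bhlhe41 had 4 of 17 peaks higher and 1 lower (10 higher without control replicate 3, and 2 or 3 without each other library), and the list 14 of 59 (23.7%) and 1 (1.69%). The lower one, 8720 bp downstream of the start of Nr1d1 and within Thra, fell from 1277, 1109 and 1605 to 784, 740 and 680, and a peak 1734 bp downstream rose from 4785, 4455 and 5558 to 7034, 6443 and 6251. Cell cycle brakes and cyclins had Ccnd1, Ccnd2, Mcl1 and Gadd45g, with 7 of 22 peaks higher and none lower (2 lower with each other scaling, the promoter peaks of Ccnd1 and Mcl1), against 15 of 67 (22.4%) and 2 (2.99%) over the list. Gadd45g, a stress response gene, had the sum called higher, 3892 ± 587 in control and 5607 ± 239 in Taf4a sKO MuSCs (SD, n = 3, log2 fold change 0.54, adjusted p = 1.7e-03).

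Developmental transcription factors with 5 or more peaks, Ebf3, Irx5 and Gata2, had 1 of 15 peaks higher and 1 lower. The higher call, at Gata2, was lost with both other scalings and held in 2 of 6 fits with a library left out. Lower calls of the 3 genes were 2 with median-of-ratios factors and 4 after quantile normalization. The whole list had 27 of 141 peaks higher (19.1%) and 6 lower (4.26%), against 28.0% and 13.9% of all tested peaks. Over the list of the NSL complex and chromatin modifiers, which holds Lmna, a gene of the nuclear lamina, 19 of 95 peaks (20.0%) were higher and 8 (8.42%) lower. No gene with 5 or more peaks came from TFIID and NF-Y (1 of 19 peaks higher, 1 lower), from cytosolic ribosomal proteins (3 of 34 higher, 5 lower) or from muscle differentiation and sarcomere genes (13 of 57 higher, 10 lower).

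Markers of other cell types were read beside these results, and beside the 28.0% higher and 13.9% lower among all tested peaks. The summed value of the endothelial list was 4241, 4240 and 5053 in control and 6422, 6340 and 6659 in Taf4a sKO libraries. In this list 11 of 15 genes had a peak, led by Tek, 9 of 19 peaks were higher and 2 lower, Tie1, Emcn, Vwf and Sox17 had no peak, and no gene had 5 peaks. Fibro-adipogenic markers gave 18401, 17048 and 20379 in control and 24490, 22742 and 22720 in Taf4a sKO libraries, with 12 of 13 genes having a peak (not Ly6a), Hic1 the strongest, and 17 of 39 peaks higher and 3 lower. Its members Col3a1, Pdgfra and Scara5 are among the 235 genes, and 5 of their 17 peaks were higher and 1 lower. Pericyte and smooth muscle markers gave 13028, 11943 and 14397 in control and 15817, 15287 and 15392 in Taf4a sKO libraries, with peaks at 9 of 10 genes (not Rgs5), Notch3 the strongest, and 10 of 22 peaks higher and none lower. Haematopoietic markers had few peaks, with peaks at 5 of 15 genes, none at Ptprc or Cd3e, Spi1 the strongest, and sums of 1234, 1357 and 1502 in control and 1587, 1377 and 1660 in Taf4a sKO libraries. Schwann cell markers had peaks at 6 of 9 genes (not S100b, Cdh19 and Gfra3), Ngfr the strongest, with 2 of 12 higher and 1 lower, and sums of 6694, 6351 and 7912 in control and 7313, 6999 and 7209 in Taf4a sKO libraries. The MuSC identity list, for comparison, summed to 106225, 96658 and 116725 in control and 124120, 116344 and 116764 in Taf4a sKO libraries. The part that other cell types may have in the higher peaks was not tested, and the purity of the sorted cells was incomplete, as given above. In bulk libraries more cells of a type and more open chromatin per cell cannot be told apart.

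The 3 motifs were searched on both strands in the 300 bases around each peak centre. An AP-1 site (TGANTCA) occurred in 19.8% of the 1255 windows and in 22.0% of the windows of all peaks. It was present in 122 of the 417 higher peaks (29.3%), in 13 of 91 lower peaks (14.3%) and in 113 of 747 peaks that were not called (15.1%). CAGCTG occurred in 29.1% of the windows of these genes as well as of all peaks, in 26.4% of higher, 45.1% of lower and 28.6% of uncalled peaks. Genes with 1 to 4 peaks also had it most often in lower peaks, with 24.2% of higher, 38.9% of lower and 20.7% of uncalled peaks. CCAAT was present in 27.6% of higher, 28.6% of lower and 27.6% of uncalled peaks, and in 32.2% of all. Away from the start, beyond 1000 bp, AP-1 sites were in 31.1% of higher, 15.4% of lower and 17.5% of uncalled peaks. Genes with 1 to 4 peaks showed the same order at peaks beyond 1000 bp, with 33.6, 15.1 and 17.7%. These are matches of letters, given without a test, and they do not show which factor was bound.

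**Figure D5:**
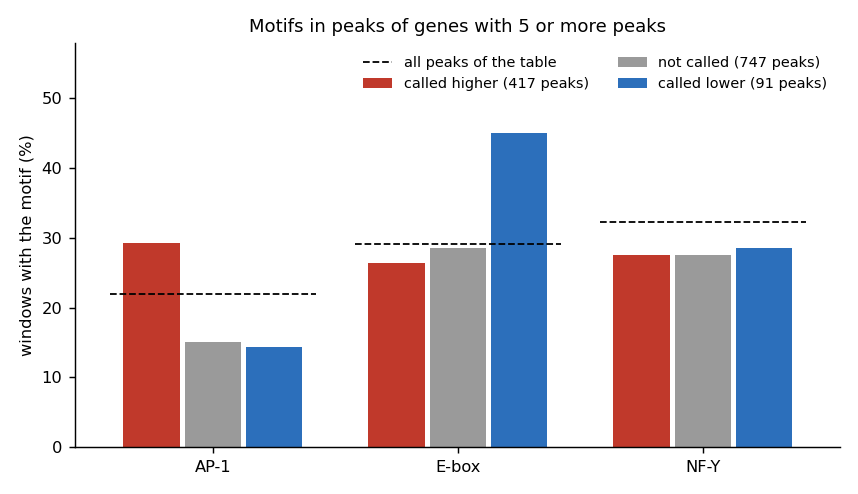
Percent of 300-base windows with an AP-1 site, an E-box or an NF-Y site among peaks of the 235 genes called higher (red), not called (grey) or called lower (blue) in Taf4a sKO MuSCs; dashed lines give the share over all peaks of the table. The red bar is the tallest for AP-1 (29.3%) and the blue bar for the E-box (45.1%), and the 3 bars for NF-Y lie between 27.6% and 28.6%.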

How the data were processed

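ATAC-seq libraries, 3 control and 3 Taf4a sKO, were analysed, grouped by the genotype label. Per the study's methods, the authors trimmed reads with Trimmomatic 0.39, aligned them to mm10 with STAR 2.7.11b, removed duplicates with Picard 3.1.1, called peaks with MACS, unified them, counted reads with featureCounts and scaled the counts for depth. The deposited values are whole numbers, from which rounding was inferred. Those methods do not mention moving read ends to the Tn5 cut site. The deposited values are therefore normalized scores and not raw counts, and no count model was used. The authors assigned each peak to the nearest gene start within 10000 bp. No per-sample column was left unused.

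Peaks with a mean above 10 (75384 of 75412) were tested on log2(value + 1) with limma 3.58.1 (R 4.3.3, trend and robust), with Benjamini-Hochberg adjustment over all of them. A peak was called at an adjusted p under 0.05. Fold changes of low peaks are understated on this scale. Summed values per gene were tested likewise over 14221 protein-coding genes. The prior degrees of freedom were infinite for 13568 of them, so SE and p of single sums are from limma without trend and robust moderation (prior degrees of freedom 14.2, against a median of 19.5 for peaks). Unequal changes within a gene were tested with diffSplice on vooma weights over 5762 genes. With 3 against 3 libraries, an exact permutation test of a single value cannot go below p = 0.1, so none was used. The peak test, the main fit of the summed values and the within-gene F test were tested on simulated data. Annotation was GENCODE vM21 (98.7% of the 235 genes with the same coordinates) and sequence the RefSeq GRCm38 genome. Distances are from the peak centre to the gene start of the table.

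Genes were named as follows: 10 with the most peaks (ties by the larger summed value), up to 6 in each direction with at least 80% of peaks called in it, the 6 with calls in both directions and the smallest within-gene p, up to 4 of each of 18 gene lists, and Taf4. A gene named by this rule is not reported here. The genes, lists and rules were chosen with earlier results of these data known. Same-numbered replicates did not deviate together (r = 0.11, -0.118 and -0.029), so the main fits have no replicate block.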

Additional observations from a re-analysis of the deposited data

How the results depend on the processing

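The direction of the shift toward higher peaks at genes with 5 or more peaks held under every alternative run, but shares of lower calls moved with the scaling. With median-of-ratios factors 15.5% of the 1255 peaks were lower, 35.7% of the genes had calls in both directions and 17.0% had a lower sum. Quantile normalization gave 18.6%, 40.9% and 23.4%. The cause was not tested. At an adjusted p under 0.01, 4.70% of peaks were lower and 10.6% of genes had both directions. With a log2 fold change beyond 1 required as well, 6.37% of peaks were higher, 1.91% lower and 0 genes had both. A mean above 50 left 2.02% of genes with a lower sum, and genes with 4 or more peaks gave 6.88%. With a library left out in turn, higher sums took 20.0 to 65.1% of genes (the highest without control replicate 3), lower sums 2.55 to 4.68%, higher peaks 25.7 to 46.0%, lower peaks 5.66 to 7.01%, both directions 12.8 to 23.0% and unequal changes within a gene 66.4 to 82.1%. Genes with at least 80% higher peaks then numbered 14 to 43.

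With the replicate number as a block, 34.5% of peaks were higher, 7.49% lower, 19.6% of genes had both directions, 30.2% of sums were higher, 3.40% lower and 80.9% of genes had unequal changes. Of the gene sums named, reversals occurred after quantile normalization at Smug1 (-0.20), Heyl (-0.13), Ebf3 (-0.12), Col6a1 (-0.10) and Taf4 (-0.083), and at Rhoh with the mean of log2 values (-0.37). The other alternatives for the named sums gave 695 values on the same side, 56 that newly passed the test and 23 that no longer did. Runs with other scalings or libraries used the first fit of the sums, which for most genes gives no weight to their own spread. Gene sums with the own spread of each gene, chosen after seeing the data, were called higher at 28.5% and lower at 2.55% of genes. Depth limits peaks with values near 10, such as those of Iyd and Galnt15. The p-values rest on 3 libraries per genotype.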
